A study of Mus musculus with 27 samples.

Results

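The genes described here encode the mouse proteasome, its immune form, its activators and its assembly factors, measured by RNA sequencing in CD11b+ brain cells of stressed mice. Members were the protein-coding genes whose symbol starts with Psma to Psmg and a number: 50 matched in each of 2 count tables, of 53412 and 55421 genes. A member needed at least 10 counts in 2 libraries, which 49 passed in both tables. Psmb11, a thymus-specific catalytic subunit, did not pass. It had 0 counts in every library of the one table and at most 3 in any library of the other. The 49 are 32 constitutive subunits, 5 immunoproteasome genes (Psmb8, Psmb9, Psmb10, Psme1 and Psme2), 7 assembly chaperones, the activators Psme3 and Psme4 with the inhibitor Psmf1, and 2 genes that match the naming pattern but were not counted as subunits. The constitutive subunits divide into 8 alpha and 7 beta genes of the 20S core, and 6 ATPase and 11 non-ATPase genes of the 19S cap. The alpha genes include Psma8, the testis form, which enters the constitutive medians and counts unless it is said to be left out. Those not counted as subunits are Psmc3ip, a meiotic recombination factor named for binding Psmc3, and Psme2b, a near-copy of Psme2.

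The proteasome degrades proteins tagged with ubiquitin. Its 20S core is a barrel of alpha and beta rings, in which the beta subunits Psmb5, Psmb6 and Psmb7 cut peptide bonds. The 19S cap binds tagged proteins, unfolds them with its ATPases and feeds them into the core. Interferon gamma replaces the catalytic subunits with Psmb8, Psmb9 and Psmb10 and induces the activator formed by Psme1 and Psme2, giving the immunoproteasome, which favours peptides that fit MHC class I. Microglia, the resident macrophages of the brain, carry CD11b (Itgam) and can present antigen.

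All mice were labelled C57BJ6. Cells were sorted by CD11b from 2 regions, prefrontal cortex (PFC) and hippocampus (HC), and each library covers 1 region. In the minocycline experiment, naive mice (NAIVE; 2 PFC and 2 HC libraries) stood beside mice given chronic unpredictable mild stress (CUMS; 2 PFC and 3 HC) and stressed mice given the antibiotic minocycline (CUMS_M; 3 PFC and 3 HC). In the enrichment experiment every mouse was stressed, and received either vehicle (VEH; 3 PFC and 3 HC) or environmental enrichment (EE; 3 PFC and 3 HC), so that table has no unstressed group. The labels name no vehicle for the CUMS mice of the minocycline experiment, and give no age, sex or sort day. They do not say whether libraries of a group came from separate mice, so p-values measure the spread between these samples, which may be technical. In sorted bulk cells, fewer cells of a type and less RNA per cell cannot be told apart.

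Libraries held 7867323 to 15278538 gene counts in the minocycline experiment, where both PFC NAIVE libraries were the shallowest, and 19519117 to 23902719 gene counts in the enrichment experiment. Levels are given as CPM (counts-per-million, on the scaled library size). The defining microglial markers were high throughout: Cx3cr1 lay at 6809 CPM or above in all 27 libraries, Tmem119 at 2511 or above, P2ry12 at 2522 or above and Itgam at 461 or above. Several libraries stood apart or did not follow their labels. In the minocycline experiment, the summed level of choroid plexus genes was 558 to 1915 CPM in HC and 1.19 to 2.61 CPM in PFC, except for 604 CPM in PFC CUMS_M library 3. In the enrichment experiment this sum did not follow the region labels. It was 0.644, 720 and 730 CPM in PFC VEH, 12.02, 1128 and 230 in PFC EE, 0.613, 1.45 and 211 in HC VEH, and 1975, 507 and 1110 in HC EE. PFC VEH library 1 had the highest ribosomal protein level of its table, and HC VEH library 3 had 1.97% mitochondrial counts against 0.518 to 1.03% in the other enrichment libraries. The enrichment medians below are given with and without PFC VEH library 1 or HC VEH library 3.

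The 3 catalytic pairs of constitutive and immune subunits are the part of the complex that defines its 2 forms. Psmb8 (ENSMUSG00000024338) lies at chr17:34197721-34201454 on the plus strand of GRCm38, and Psmb9 (ENSMUSG00000096727) at chr17:34181987-34187764 on the minus strand, beside each other in the MHC region. Psmb10 (ENSMUSG00000031897) is at chr8:105935735-105938444, minus strand. Their constitutive partners are Psmb5 (ENSMUSG00000022193) at chr14:54614119-54618022, minus strand, Psmb6 (ENSMUSG00000018286) at chr11:70525367-70527858, plus strand, and Psmb7 (ENSMUSG00000026750) at chr2:38588036-38644087, minus strand. Psme1 (ENSMUSG00000022216) at chr14:55578123-55581529, plus strand, and Psme2 (ENSMUSG00000079197) at chr14:55587441-55591113, minus strand, are near neighbours.

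The promoters of Psmb8 and Psmb9 and of their partners Psmb5 and Psmb6 are shown to set 2 catalytic pairs side by side in the letters of their start regions. Each sequence is the 250 bases before the start that RefSeq annotates on GRCm38.p6, read 5′ to 3′ on the gene's strand. RefSeq starts are not the outer ends of the GENCODE gene spans given above, and the windows of Psmb8 and Psmb9 lie inside those spans. Psmb8 is chr17:34197945-34198194 (plus), Psmb5 is chr14:54617996-54618245 (minus), Psmb9 is chr17:34187331-34187580 (minus) and Psmb6 is chr11:70525107-70525356 (plus). Capitals mark a gamma-activated sequence in Psmb8, an antioxidant response element core in Psmb5 and Psmb6, and a CCAAT box on the opposite strand in Psmb9.
Psmb8: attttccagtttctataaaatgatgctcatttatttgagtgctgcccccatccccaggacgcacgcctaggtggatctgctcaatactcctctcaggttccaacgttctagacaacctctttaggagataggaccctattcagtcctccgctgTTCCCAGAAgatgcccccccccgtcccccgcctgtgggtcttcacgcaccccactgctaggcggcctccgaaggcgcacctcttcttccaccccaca
Psmb5: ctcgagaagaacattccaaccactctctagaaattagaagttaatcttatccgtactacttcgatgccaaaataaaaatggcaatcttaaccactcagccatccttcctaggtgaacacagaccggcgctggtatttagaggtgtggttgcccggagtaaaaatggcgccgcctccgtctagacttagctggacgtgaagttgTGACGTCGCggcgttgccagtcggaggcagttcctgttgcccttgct
Psmb9: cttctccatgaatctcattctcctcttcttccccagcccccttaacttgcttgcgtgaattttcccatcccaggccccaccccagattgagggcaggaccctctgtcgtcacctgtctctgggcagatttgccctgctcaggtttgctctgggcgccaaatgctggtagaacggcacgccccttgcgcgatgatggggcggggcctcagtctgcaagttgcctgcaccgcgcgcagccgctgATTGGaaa
Psmb6: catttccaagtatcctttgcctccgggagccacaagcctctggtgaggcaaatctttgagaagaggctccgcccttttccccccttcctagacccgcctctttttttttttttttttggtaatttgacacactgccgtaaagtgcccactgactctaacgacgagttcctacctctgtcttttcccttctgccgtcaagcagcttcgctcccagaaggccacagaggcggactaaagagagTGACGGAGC

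A window was held for 41 of the 49 kept members, among them 25 constitutive subunits and all 5 immunoproteasome genes. Both strands were searched for each motif. A member counted as matching if any of its windows matched, while the share over all windows counts each window. The gamma-activated sequence, TTCNNNGAA, matched in 7.02% of all 32851 windows, in 0 of 25 constitutive subunits and in 1 of 5 immunoproteasome genes, Psmb8, where it read TTCCCAGAA 97 bases before the start. The antioxidant response element core, TGACNNNGC, matched in 10.2% of all windows, in 4 of 25 constitutive subunits (Psmb5, Psmb6, Psmc6 and Psmd12) and in 0 of 5 immunoproteasome genes. The interferon-stimulated response element matched in 2.98% of all windows, in 2 of 25 constitutive subunits (Psmb3 and Psmd4) and in 0 of 5 immunoproteasome genes. The CCAAT box matched in 33.8% of all windows, in 10 of 25 constitutive subunits and in 1 of 5 immunoproteasome genes, Psmb9. The GC box, GGGCGG, matched in 32.7% of all windows, in 14 of 25 constitutive subunits and in 3 of 5 immunoproteasome genes. These matches are letters in a window, and no binding was measured.

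Immunoproteasome transcripts were abundant in CD11b+ cells of every group, naive mice included. Psmb8, the immune counterpart of the chymotrypsin-like subunit Psmb5, was counted at 109 to 146 CPM in the 15 libraries of the minocycline experiment. Psmb5 was counted at 30.9 to 44.5 CPM in the same libraries. Per library, the log2 CPM of Psmb8 exceeded that of Psmb5 by a median of 1.75 (1.32 to 1.93, n = 15), a 3.36-fold ratio, and by 1.52 (1.34 to 1.87, n = 12) in the enrichment experiment. This order depends on the length used. Per kilobase of the principal transcript, the median difference was 0.89 and 0.66 on the log2 scale, with Psmb8 higher. Per kilobase of all annotated exons, it was -0.16 and -0.40, with Psmb8 lower. Psmb8 has 3381 exon bases in all and 1628 in its principal transcript, while Psmb5 has 899 in both.

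Psmb10, the counterpart of the trypsin-like subunit Psmb7, was also the more abundant of its pair, and this held on every length scale. Its log2 CPM exceeded that of Psmb7 by a median of 0.78 (0.65 to 0.97) in the minocycline experiment and of 1.13 (0.41 to 1.43) in the enrichment experiment. Per principal transcript kilobase the medians were 0.60 and 0.95, and per exon kilobase 1.78 and 2.13. Psmb9, the counterpart of the caspase-like subunit Psmb6, was the less abundant of its pair in all 27 libraries. Its log2 CPM was below that of Psmb6, with a median difference of -0.73 (-1.14 to -0.48) and -0.67 (-1.02 to -0.34). Per principal transcript kilobase the medians were -1.49 and -1.43, and per exon kilobase -1.70 and -1.64. In the plot of the 3 pairs by library, each pair keeps its order in CPM in every library.

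**Figure D1:**
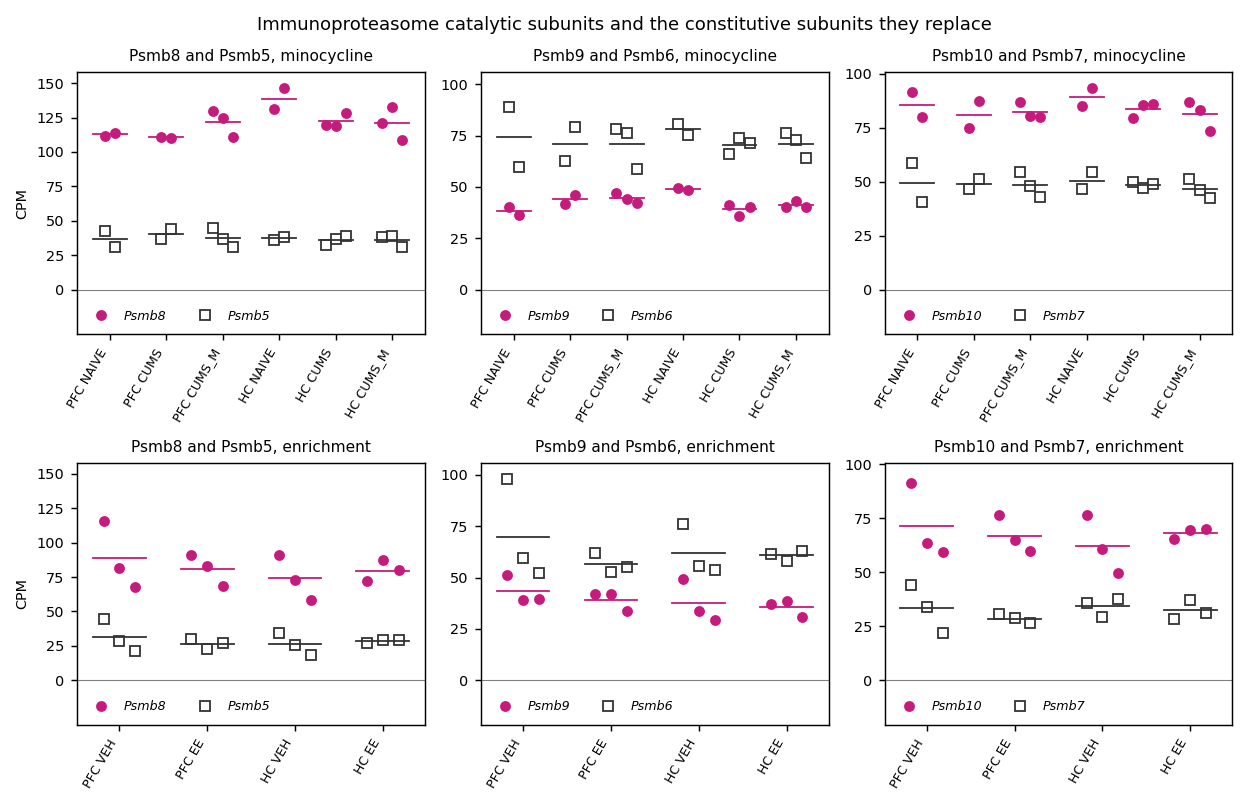
CPM of each immunoproteasome catalytic gene (filled) and its constitutive partner (open squares) per library, by group, with bars at group means. Psmb8 and Psmb10 lie above Psmb5 and Psmb7 in every library of both experiments, and Psmb9 lies below Psmb6 in every library.

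Some of these counts cannot be assigned to 1 gene with certainty. Of the 76-base windows of the principal transcript, 39.3% of those of Psmb5 also occur in other genes (2 genes, Gm3375 the most), 24.0% of those of Psmb7 in Nek6 and 10.7% of those of Psmb9 in Tap1. Exons on the opposite strand overlap 14.7% of the exon bases of Psmb8 (Gm20496) and 11.8% of those of Psmb7 (Nek6). For Psmb9 (Tap1) the share is 5.79%. On the same strand, Mir686 overlaps 12.1% of the exon bases of Psmb5. Whether the authors' counting used strand is not given in the sources used here.

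Across the whole set, levels per exon kilobase spanned from about 1 to more than 50 CPM. Orders on this scale depend on the length used, as for Psmb8 and Psmb5, and were not ranked again per principal transcript kilobase. Psmb7, for example, has 3421 exon bases in all and 1160 in its principal transcript, and Psmb6 has 1872 and 798. Psme1, the alpha subunit of the interferon-induced PA28 activator, had the highest level in both experiments, with a median of 51.8 CPM per exon kilobase (39.2 to 63.2) in the minocycline experiment and 56.8 (49.3 to 74.2) in the enrichment experiment. It was followed in the minocycline experiment by Psmb10 at 49.7 and the ATPase Psmc3 at 47.1, and in the enrichment experiment by Psmc3 at 47.4 and the alpha subunit Psma6 at 44.6. The ranges of these leading genes overlapped, so their order is not separated by the spread over libraries. Psme2, the other PA28 chain, had 36.6 and 36.7 CPM per exon kilobase. Psmc3ip had the lowest level in the minocycline experiment, 0.937, and Psma8, the testis form of an alpha subunit, the lowest in the enrichment experiment, 1.03.

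By role, the constitutive core and cap overlapped widely per exon kilobase. In the minocycline experiment, the beta subunits ran from 13.96 (Psmb7) to 43.98 (Psmb4), the alpha subunits other than Psma8 from 8.69 (Psma3) to 46.7 (Psma6), the ATPases from 10.2 (Psmc6) to 47.1 (Psmc3) and the non-ATPase subunits from 10.5 (Psmd1) to 34.0 (Psmd2). Assembly chaperones, which build the complex and leave it, ran from 2.73 (Psmd9) to 9.93 (Psmd10), overlapping the lowest alpha subunits on this length scale. Among the activators, the nuclear PA28 gamma gene Psme3 had 22.2, while Psme4, which encodes PA200, had 4.75 and Psmf1, which encodes the inhibitor PI31, had 5.99. The steadiest member was Psmd3, a non-ATPase subunit of the lid of the cap, whose log2 CPM had an SD of 0.07 over 15 libraries and 0.06 over 12. The most variable was Psmc3ip in the minocycline experiment (SD 1), where it had 0.349 to 5.88 CPM, and Psma8 in the enrichment experiment (SD 0.43).

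**Figure D2:**
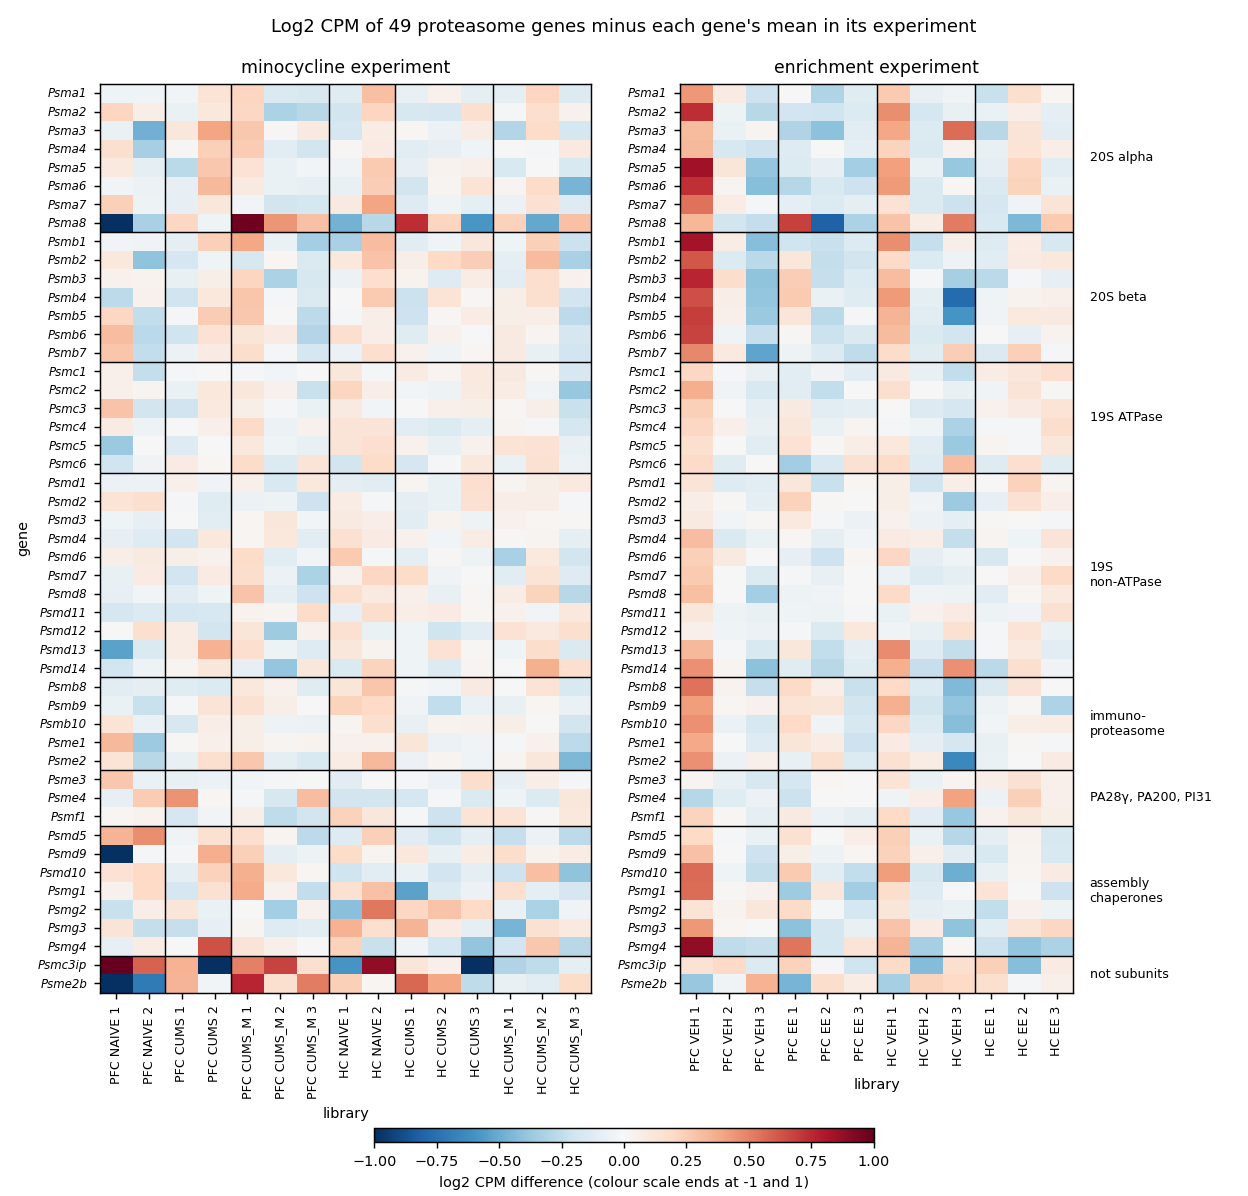
Log2 CPM of each kept member minus that gene's mean over its experiment, with genes in rows ordered by role and libraries in columns ordered by group; the colours end at 1 and -1. Most cells are pale; PFC VEH library 1 is high across the 20S genes, and Psme2b is low in both PFC NAIVE libraries.

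No member passed the test in any of 13 contrasts. Of 637 tests (49 members in 13 contrasts; edgeR quasi-likelihood F-test, adjusted over all genes of the table), 0 had an adjusted p under 0.05 and 30 had an unadjusted p under 0.05. The smallest adjusted p was 0.0542, for Psme2b. Under some alternatives Psme2b, Psmd13 or Psmd9 passed in contrasts with the PFC NAIVE group, and no immunoproteasome gene or catalytic partner did under any alternative. The groups are small, and the intervals show what sizes they leave. For the 5 immunoproteasome genes with Psmb5, Psmb6 and Psmb7, all 64 intervals (95%) in the 8 treatment contrasts lay within 1 on the log2 scale in either direction, the extremes being -0.78 and 0.66.

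**Figure D3:**
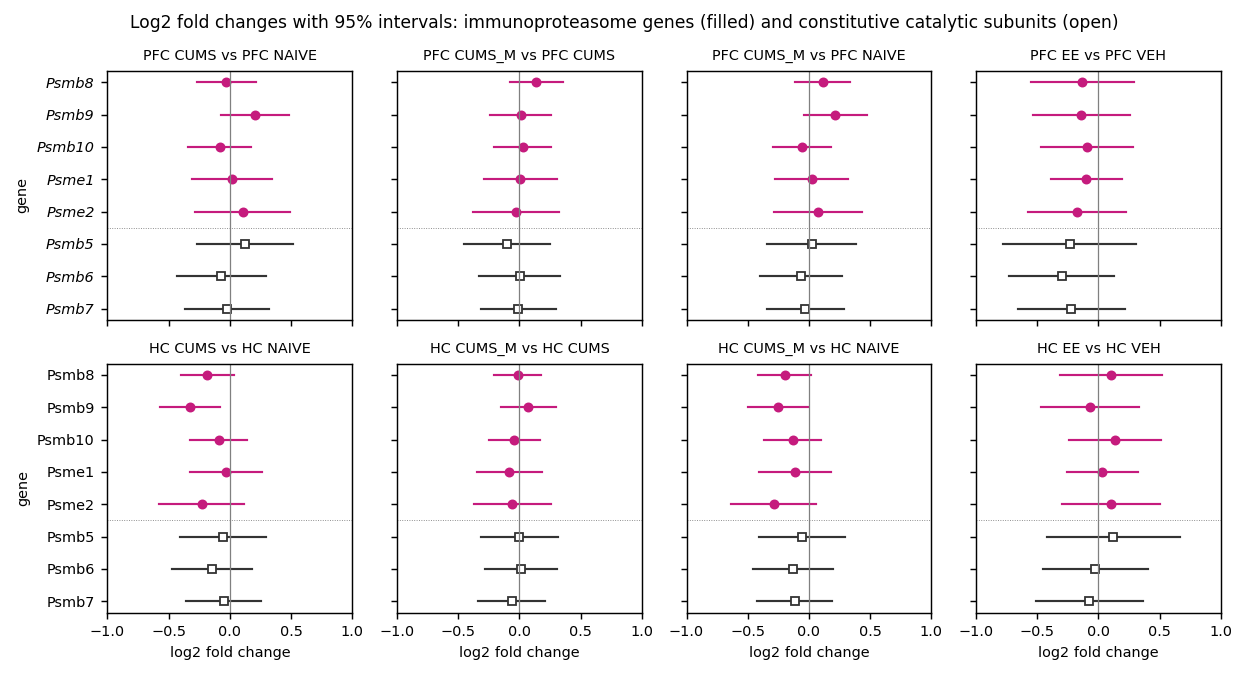
Log2 fold change with its 95% interval for the 5 immunoproteasome genes (filled) and Psmb5, Psmb6 and Psmb7 (open) in the 8 treatment contrasts, from the edgeR fits. All intervals lie between -0.78 and 0.66, and those of Psmb9 in HC CUMS and HC CUMS_M against HC NAIVE end below 0.

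In the hippocampus, stressed mice had lower immunoproteasome values than naive mice for all 5 genes, by small amounts. Psmb9 had 49.3 and 48.6 CPM in HC NAIVE, against 41.3, 35.7 and 40.4 in HC CUMS. Every stressed library lay below both naive ones. The log2 fold change was -0.33 ± 0.12 (SE), with an unadjusted p of 0.0126 and an adjusted p of 1 in edgeR. Psmb8 had 131 and 146 CPM in HC NAIVE against 120, 119 and 128 in HC CUMS, again without overlap (-0.18 ± 0.10). Psme2 had 66.5 and 79.3 CPM against 60.7, 64.5 and 61.3, also without overlap (-0.23 ± 0.17). Psmb10 (84.8 and 93.3 against 79.3, 85.6 and 85.9 CPM) and Psme1 (115 and 115 against 121, 107 and 109 CPM) overlapped between the groups, with log2 fold changes of -0.09 and -0.03.

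The lower values in the hippocampus were not limited to the immune genes. Psma7, an alpha subunit of the constitutive core, had 66.3 and 81.7 CPM in HC NAIVE and 56.7, 60.2 and 58.1 in HC CUMS, without overlap (log2 fold change -0.34 ± 0.13, unadjusted p = 0.0136, adjusted p = 1 in edgeR). Psmb6 had 80.7 and 75.2 CPM against 66.0, 74.0 and 71.5, without overlap. Psmb5 (36.4 and 38.5 against 32.1, 37.1 and 39.0 CPM) and Psmb7 (46.5 and 54.3 against 49.8, 47.1 and 49 CPM) overlapped. Of the 49 members, 12 were lower in every HC CUMS library than in every HC NAIVE library and 2 were higher. Over all genes tested, 10.3% were lower without overlap and 10.2% higher. The 12 are Psmb8, Psmb9, Psme2, Psma4, Psma7, Psmb6, Psmc4, Psmc5, Psmd3, Psmd4, Psmd8 and the chaperone Psmg1. The 2 are the cap scaffold Psmd1 and Psme4.

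In the hippocampus the median log2 fold change was -0.08 over the 32 constitutive subunits, -0.18 over the 5 immunoproteasome genes and -0.01 over all genes. It was above 0 for 6 of 32 constitutive subunits and for 0 of 5 immunoproteasome genes. Per library, the mean log2 CPM of the immunoproteasome genes minus that of the constitutive subunits without Psma8 was 0.46 and 0.45 in HC NAIVE. It was 0.42, 0.35 and 0.34 in HC CUMS and 0.39, 0.33 and 0.27 in HC CUMS_M, each below both naive libraries. PFC NAIVE (0.46 and 0.27) overlapped PFC CUMS (0.37 and 0.35) and PFC CUMS_M (0.38, 0.45 and 0.42). This difference was not tested. The naive group has only 2 libraries. The constitutive median was -0.12 without HC NAIVE library 1 and -0.01 without HC NAIVE library 2, and the immunoproteasome median was -0.26 and -0.10. Library 2 also differed from library 1 in wider measures. The mean log2 CPM of genes with a principal transcript under 1500 bases, minus that of genes over 4000 bases, was -0.24 and -0.08 in HC NAIVE. In HC CUMS it was -0.28 to -0.18. The ribosomal protein mean was 7.56 and 7.94 in HC NAIVE and 7.49 to 7.68 in HC CUMS. The part of these measures was not tested. The share of all genes called in this contrast was 0%. In edgeR 0 genes passed, with 418 at an unadjusted p under 0.05, and DESeq2 called 1. Markers of several other cell types differed between these groups without overlap. The 4 B cell markers listed (3 tested, 0 of them at 0 counts) summed to 35.6 and 35.2 CPM in HC NAIVE, against 24.1 to 29.3 CPM in HC CUMS and 27.7 to 32.5 CPM with minocycline. Neutrophil markers summed to 555 and 1237 CPM in the naive group and to 125 to 337 CPM in the stressed group. Higher in the stressed group were astrocyte markers (441 to 502 against 280 to 342 CPM) and oligodendrocyte markers (650 to 803 against 473 CPM in both naive libraries). Their part in the result was not tested.

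In the prefrontal cortex, the same comparison gave list medians near 0. Psmb9 had 40.3 and 36.2 CPM in PFC NAIVE and 41.9 and 46.3 in PFC CUMS, higher in both stressed libraries (log2 fold change 0.21 ± 0.13; adjusted p = 0.525 in edgeR). Psmb8 had 112 and 114 CPM against 111 and 110, lower in both by a narrow margin (-0.03 ± 0.12). Psmb10 (91.5 and 79.7 against 74.7 and 87.1 CPM), Psme1 (140 and 86.6 against 113 and 116 CPM) and Psme2 (69.5 and 52.1 against 60.1 and 70.7 CPM) overlapped. So did Psmb5 (42.6 and 31.2 against 36.4 and 44.0 CPM), Psmb6 (89.0 and 59.5 against 62.5 and 79.1 CPM) and Psmb7 (58.4 and 40.7 against 46.4 and 51 CPM). The median log2 fold change was 0.02 over the constitutive subunits, 0.01 over the immunoproteasome genes and 0.02 over all genes. This contrast had the most stress-related calls of the series, 0.816% of all genes (119), and 0 of them were members. Without PFC NAIVE library 2 it was 548 genes, 3 of them members (Psmd13, Psmd9 and Psme2b). It was 28 without PFC NAIVE library 1, 22 without PFC CUMS library 1, 14 without PFC CUMS library 2 and 31 with these groups alone in the fit, with 0 members in each.

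The members with the smallest p in PFC CUMS against PFC NAIVE were Psme2b and Psmd13. Psmd13 (chr7:140881968-140898643, plus strand), a non-ATPase cap subunit, had 35.0 and 46.0 CPM in PFC NAIVE and 53.5 and 64.5 in PFC CUMS. Both stressed libraries lay above both naive ones (log2 fold change 0.54 ± 0.16, unadjusted p = 0.00276, adjusted p = 0.123 in edgeR). The adjusted p ranged from 0.0310 to 0.576 over the alternatives. It was 0.0310 without PFC NAIVE library 2 and 0.0343 without the filter on low counts, both past the threshold. Psmd9, a chaperone of the cap base, had 9.41 and 19 CPM against 19.1 and 24.9, and Psma3, an alpha subunit, had 31.9 and 23.9 against 36.1 and 44.0. In these, too, the groups did not overlap. Exons of Sirt3 on the opposite strand overlap 10.1% of the exon bases of Psmd13, and 13.9% of its transcript windows also occur in Sirt3. Exons of Gm26745 on the opposite strand overlap 25.5% of those of Psmd9.

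Psme2b (chr11:48945354-48946190, minus strand) gave the strongest differences among the 49 and is the hardest to read. It had 2.35 and 5.92 CPM in PFC NAIVE, 12.3 and 9.55 in PFC CUMS, and 16.5, 10.8 and 13.9 in PFC CUMS_M. Both naive libraries lay below all the others. The log2 fold change was 1.40 ± 0.36 for CUMS against NAIVE (unadjusted p = 0.00103, adjusted p = 0.0800 in edgeR) and 1.73 ± 0.34 for CUMS_M against NAIVE (unadjusted p = 6.65e-05, adjusted p = 0.0542). Over the alternatives the adjusted p ranged from 0.00306 to 0.464 in the first and from 4.39e-05 to 0.326 in the second. It passed the threshold with DESeq2 (0.0168 and 0.000852), without the filter on low counts and without PFC NAIVE library 2 (0.0109 and 0.00644), and in the second also without PFC CUMS_M library 2 (0.0425). In the hippocampus the values overlapped, with 11.5 and 9.89 CPM in HC NAIVE, 14.5, 12.8 and 8.16 in HC CUMS, and 9.27, 9.06 and 11.1 in HC CUMS_M. The transcript is 99.4% identical to that of Psme2 over 794 aligned bases, and 59.8% of its 76-base windows also occur in Psme2. Psme2b took 3.27% and 10.2% of the summed Psme2 and Psme2b level in PFC NAIVE, 11.1 to 19.6% in the other minocycline libraries and 15.7 to 37.3% in the enrichment libraries. How reads matching both genes were counted is not given in the sources used here, so Psme2b and Psme2 values are uncertain.

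Of the 49 members, 10 were higher in both PFC CUMS libraries than in both PFC NAIVE libraries and 5 were lower. With 2 libraries on each side, 43.9% of all genes did not overlap in one or the other direction. The 10 are Psma1, Psma3, Psma8, Psmb9, Psmc6, Psmd1, Psmd9, Psmd13, Psmd14 and Psme2b, and the 5 are Psmb8, Psmc3ip, Psmd2, Psmd5 and Psmf1. Astrocyte markers summed to 223 and 259 CPM in PFC NAIVE and to 708 and 770 in PFC CUMS. Neutrophil markers summed to 2472 and 3635 CPM in PFC NAIVE and to 1710.2 and 1378 in PFC CUMS. Also without overlap, the stressed group had higher sums of endothelial and mural markers (181 to 232 against 80.8 to 113 CPM) and of border-associated macrophage markers (550 to 685 against 382 to 429 CPM). It had lower sums of microglial markers (44834 to 47854 against 52021 to 55788 CPM) and of T and NK cell markers (6.32 to 11.1 against 11.9 to 14.3 CPM). Their part in these values was not tested.

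**Figure D4:**
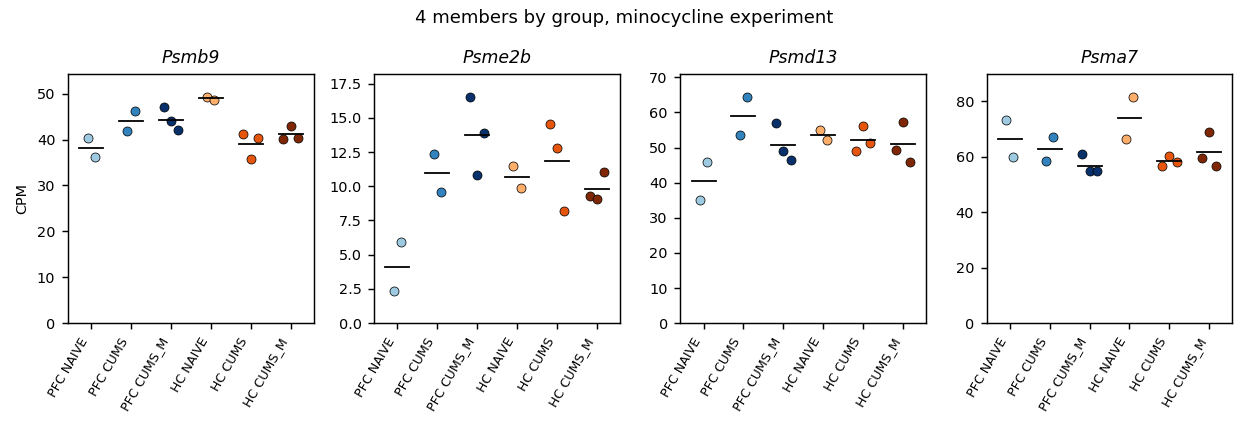
CPM of Psmb9, Psme2b, Psmd13 and Psma7 per library in the 6 groups of the minocycline experiment, with bars at group means. Both HC NAIVE libraries are the highest for Psmb9, 1 of them is the highest for Psma7, and Psme2b and Psmd13 are lowest in PFC NAIVE library 1.

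The direction of the stress difference was compared between regions directly. For Psmb9 the hippocampal log2 fold change minus the cortical one was -0.53 ± 0.18 (unadjusted p = 0.00771, adjusted p = 0.631 in edgeR, 0.303 to 1 over the alternatives). The corresponding values were -0.58 ± 0.21 for Psmd13, -1.25 ± 0.47 for Psme2b and -0.15 ± 0.16 for Psmb8. The median over the 32 constitutive subunits was -0.14, over the 5 immunoproteasome genes -0.16 and over all genes -0.04. It was above 0 for 5 constitutive and 0 immunoproteasome genes. The test called 0% of all genes, with 914 at an unadjusted p under 0.05 and 19 called by DESeq2.

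Minocycline in stressed mice gave list medians near 0 and few members whose groups did not overlap. In the cortex, Psmb8 had 111.08 and 109.9 CPM in PFC CUMS and 130, 124 and 111.10 in PFC CUMS_M, without overlap though the nearest libraries were almost level (log2 fold change 0.14 ± 0.11; adjusted p = 1 in edgeR). Psmb9 had 41.9 and 46.3 CPM against 47.0, 43.9 and 42.1, and Psmb10 had 74.7 and 87.1 against 86.8, 80.3 and 80.1, both overlapping. Psme1 (113 and 116 against 116, 114 and 114 CPM) and Psme2 (60.1 and 70.7 against 76, 58.9 and 56.9 CPM) overlapped as well. The constitutive partners in PFC CUMS_M had 44.5, 37.0 and 30.9 CPM (Psmb5), 78.2, 76.1 and 58.6 CPM (Psmb6) and 54.7, 47.8 and 43.0 CPM (Psmb7), each overlapping the stressed group.

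The smallest p in this contrast belonged to Psmd11, a non-ATPase cap subunit. It had 68.6 and 69.5 CPM in PFC CUMS and 79.5, 79.1 and 88.2 in PFC CUMS_M, higher in all treated libraries (log2 fold change 0.25 ± 0.11, unadjusted p = 0.0258, adjusted p = 0.747 in edgeR). PFC NAIVE had 68.9 and 70.6 CPM of it. Psmd11, Psmb8, Psma8 and Psme3 were higher without overlap and 0 were lower, 4 of 49 against 9.39% higher and 11.9% lower over all genes. The median log2 fold change was 0.00 over the constitutive subunits, 0.01 over the immunoproteasome genes and 0.02 over all genes. Of all genes 0.0206% were called, and 0 were members. DESeq2 called 73 genes, and edgeR called 84 with these groups alone in the fit and 0 with the replicate block, with 0 members in each. Several marker sums were lower in PFC CUMS_M than in PFC CUMS without overlap. Among them were astrocyte (301 to 477 against 708 to 770 CPM) and oligodendrocyte markers (254 to 387 against 657 to 688 CPM). So were endothelial and mural (74.9 to 111 against 181 to 232 CPM) and neuronal markers (9.68 to 20.5 against 34.0 to 37.5 CPM). Their part in the result was not tested.

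In the hippocampus, Psmb9 had 41.3, 35.7 and 40.4 CPM in HC CUMS and 40.1, 42.9 and 40.3 in HC CUMS_M, overlapping (log2 fold change 0.07 ± 0.11). Psmb8 had 121, 133 and 109 CPM in HC CUMS_M, Psmb10 had 86.9, 83.1 and 73.3, Psme1 had 111, 115 and 93 and Psme2 had 64.5, 68.4 and 46.3. All 4 overlapped HC CUMS. HC CUMS_M library 3 was the lowest of its group for each of these 4. The catalytic partners overlapped too, with Psmb5 at 38.4, 38.8 and 30.9 CPM, Psmb6 at 76.3, 73.0 and 64.0 and Psmb7 at 51.3, 46.0 and 42.3. Psmd12, a non-ATPase cap subunit, had 33.8, 30.3 and 32.0 CPM in HC CUMS and 38.3, 37.2 and 38.7 in HC CUMS_M, without overlap (0.25 ± 0.13; adjusted p = 1 in edgeR). The chaperone Psmg2 had 13.6, 14.3 and 13.5 CPM against 11.3, 9.44 and 11.5, lower without overlap. With Psma4 these were the only members that did not overlap, 2 higher and 1 lower of 49, against 6.04% and 4.27% of all genes. Medians of the log2 fold change were 0.01 over the constitutive subunits, -0.04 over the immunoproteasome genes and 0.01 over all genes, and 0.00686% of all genes were called, with 0 members among them. Sums of erythroid markers (27.6 to 67.5 against 80.8 to 213 CPM) were lower in HC CUMS_M than in HC CUMS without overlap. Neuronal markers were too (9.29 to 10.6 against 11.4 to 15.8 CPM). Their part in the result was not tested.

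Stressed mice given minocycline were also set against naive mice, which share the NAIVE libraries with the stress comparison. In the hippocampus, Psmb9 was lower in every CUMS_M library than in both naive ones (log2 fold change -0.25 ± 0.12, unadjusted p = 0.0466, adjusted p = 1 in edgeR), and Psme1 was too, by a narrow margin (-0.11 ± 0.14). Psmb8 (-0.20 ± 0.10), Psme2 (-0.29 ± 0.17) and Psmb10 (-0.13 ± 0.11) overlapped. In all, 2 members were higher and 6 lower without overlap (Psmd4, Psmd3, Psme1, Psmg3, Psmc4 and Psmb9), against 9.48% and 8.32% of all genes. The median log2 fold change was -0.07 over the constitutive subunits, -0.20 over the immunoproteasome genes and 0.00 over all genes. Of all genes 0% were called, with 339 at an unadjusted p under 0.05 and 1 called by DESeq2.

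In the cortex, CUMS_M against NAIVE gave a median log2 fold change of 0.03 over the constitutive subunits, 0.07 over the immunoproteasome genes and 0.03 over all genes. Psmb9 was higher in every treated library (0.21 ± 0.12; adjusted p = 0.438 in edgeR), and the other 4 immune genes overlapped. Psmd5, a chaperone of the cap base, had 41.7 and 45.4 CPM in PFC NAIVE and 37.0, 33.6 and 27.5 in PFC CUMS_M, lower in all treated libraries (-0.41 ± 0.15, unadjusted p = 0.0130, adjusted p = 0.247 in edgeR). In PFC CUMS it had 32.0 and 36.5 CPM. The cap scaffold subunit Psmd2 had 153 and 156 CPM in PFC NAIVE, 137 and 128 in PFC CUMS, and 133, 134 and 121 in PFC CUMS_M, so both naive libraries lay above all stressed ones. In all, 7 members were higher and 2 lower without overlap, against 13.8% and 11.7% of all genes. Of all genes 0.0892% were called, and 0 were members. DESeq2 called 138 genes, with Psme2b the 1 member among them, against 1 gene with these groups alone in the fit and 0 with the replicate block. Sums of microglial markers were lower in PFC CUMS_M than in PFC NAIVE without overlap (45127 to 51285 against 52021 to 55788 CPM). Those of astrocyte markers were higher (301 to 477 against 223 to 259 CPM). Their part in the result was not tested.

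The test of whether minocycline acted differently in the regions gave a median difference of 0.01 over the constitutive subunits, -0.07 over the immunoproteasome genes and 0.01 over all genes. It called 0.00686% of all genes and 0 members. The members of smallest p were Psmd11, with -0.27, and Psmd14, a deubiquitinating subunit of the cap, with 0.40 on the log2 scale.

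Between the regions themselves, in the minocycline experiment 5.10% of all genes were called and 0 members were. Psmb8 was higher in the hippocampus by 0.15 ± 0.06 on the log2 scale (126 against 116 CPM as means over libraries; unadjusted p = 0.0267, adjusted p = 0.190 in edgeR). Psmd5 was lower there, with a log2 difference of -0.23 ± 0.09 (30.8 against 36.2 CPM; adjusted p = 0.140) and so was Psme4, with -0.24 ± 0.09 (38.4 against 44.7 CPM; adjusted p = 0.145). In the enrichment experiment Psme4 was higher in the hippocampus, by 0.23 ± 0.09 (63.3 against 54.0 CPM; adjusted p = 1 in edgeR), the opposite direction. Psmb8 differed by -0.14 ± 0.14 and Psmb9 by -0.18 ± 0.13 there. Leaving out any single library in turn, PFC CUMS_M library 3 included, gave 0 members called between regions. No member separated all hippocampal from all cortical libraries in either experiment, against 1.26% and 0.0942% of all genes. The enrichment contrast called 0% of all genes, with 331 at an unadjusted p under 0.05 and 0 called by DESeq2.

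Environmental enrichment of stressed mice went with lower core values in the cortex, where PFC VEH library 1 stood highest. The mean log2 CPM of the core genes without Psma8 was 6.26, 5.66 and 5.35 in PFC VEH. It was 5.60, 5.45 and 5.49 in PFC EE, within the range of PFC VEH libraries 2 and 3. Psma7 had 99.5, 71.8 and 67.1 CPM in PFC VEH and 64.1, 62.1 and 63.6 in PFC EE, with every enriched library below every vehicle one. The log2 fold change was -0.33 ± 0.15 (unadjusted p = 0.0440, adjusted p = 0.986 in edgeR), and -0.13 without PFC VEH library 1. Psma3 had 51.2, 39.3 and 41.9 CPM against 33.4, 31 and 38.1, also without overlap (-0.37 ± 0.18). For Psma7 and Psma3 the groups did not overlap without PFC VEH library 1 either. Together with the chaperone Psmg3 these were the only members that did not overlap, 0 higher and 3 lower of 49, against 4.81% and 4.38% of all genes.

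PFC EE against PFC VEH gave a median log2 fold change of -0.13 over the constitutive subunits and -0.13 over the immunoproteasome genes, against -0.02 over all genes. By role it was -0.35 over the alpha subunits, -0.24 over the beta subunits, -0.11 over the ATPases and -0.04 over the non-ATPase subunits. Without PFC VEH library 1 it was 0.02 over the constitutive subunits and 0.06 over the immunoproteasome genes. In that library Psmb6 had 98.1 CPM against 59.4 and 52.3 in the rest of its group, Psmb5 had 44.2 against 28.4 and 21.2, and Psmb7 had 44.2 against 33.9 and 22. It was also the highest of PFC VEH for Psmb8 (116 against 81.7 and 67.8 CPM), Psmb9 (51.4 against 39.0 and 39.4), Psmb10 (91.2 against 63.7 and 59.4), Psme1 (164 against 126 and 115) and Psme2 (87.2 against 61.1 and 65.7). The share of all genes called was 0%, with 677 at an unadjusted p under 0.05 and 17 called by DESeq2.

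The PFC EE libraries had 90.9, 83.1 and 68.3 CPM of Psmb8, 42.2, 41.8 and 33.8 of Psmb9, 76.5, 64.8 and 59.6 of Psmb10, 137, 132 and 109 of Psme1 and 60.5, 71.1 and 57.8 of Psme2. Their constitutive partners had 29.8, 22.8 and 27.0 CPM (Psmb5), 61.9, 52.9 and 55.3 CPM (Psmb6) and 30.5, 28.8 and 26.5 CPM (Psmb7). Each of these 8 genes overlapped its vehicle group. Erythroid markers summed to 31.5 to 58.6 CPM in PFC VEH and to 202 to 999 in PFC EE, and to 42.6 to 61.9 in HC VEH and 352 to 823 in HC EE. In the hippocampus, enriched libraries also had higher sums without overlap for astrocyte (642 to 872 against 433 to 548 CPM), oligodendrocyte (462 to 814 against 239 to 305 CPM), border-associated macrophage (544 to 747 against 322 to 425 CPM) and choroid plexus markers. Their part in the result was not tested.

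In the hippocampus, enriched and vehicle libraries overlapped for all 5 immune genes. The median log2 fold change was 0.00 over the constitutive subunits, 0.10 over the immunoproteasome genes and -0.03 over all genes. Without HC VEH library 3 the first 2 medians were -0.05 and -0.04, and without HC VEH library 1 they were 0.10 and 0.24. Psmb8 had 91.2, 72.5 and 58.6 CPM in HC VEH and 71.8, 87.1 and 79.8 in HC EE (0.10 ± 0.19). Psmb9 had 49.2, 33.8 and 29.2 CPM against 37.1, 38.8 and 31 (-0.07 ± 0.19). Psmb10 had 76.6, 60.6 and 49.6 CPM against 65.4, 69.4 and 70.2 (0.13 ± 0.18). In each of these 3 genes the vehicle group held both the highest and the lowest library. Psme1 (133, 118 and 112 against 120, 127 and 125 CPM) and Psme2 (70.7, 66.9 and 40.8 against 60.5, 63.8 and 67.2 CPM) showed the same spread. Psmb5 had 34.7, 25.5 and 18.2 CPM against 26.7, 29.4 and 29.1, Psmb6 had 76.2, 55.4 and 53.8 against 61.3, 58.0 and 62.9, and Psmb7 had 36.0, 29.1 and 37.4 against 28.6, 37.4 and 31.3.

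Psmc3, an ATPase of the cap, had 124, 112 and 110 CPM in HC VEH and 127, 131 and 136 in HC EE, higher in every enriched library (0.19 ± 0.11; adjusted p = 0.599 in edgeR). The cap subunit Psmd7 was the other member without overlap (63.2, 60.3 and 61.9 against 65.9, 68.2 and 75.2 CPM). These were 2 higher and 0 lower of 49, against 9.67% and 6.35% of all genes. The smallest p belonged to Psma3, which overlapped at 53.8, 37.4 and 60.5 CPM against 34.0, 45 and 38.3 (-0.37 ± 0.17; adjusted p = 0.486 in edgeR). Of all genes 0% were called in edgeR (1652 had an unadjusted p under 0.05), while DESeq2 called 441, 0 of them members. With the replicate block edgeR called 73 genes, and with these groups alone in the fit 238, again with 0 members. The difference between the enrichment effects of the regions had a median of 0.15 over the constitutive subunits and 0.23 over the immunoproteasome genes, against 0.00 over all genes, and was above 0 for 28 of 32 and 5 of 5. Without PFC VEH library 1 these medians were -0.02 and -0.01, and without HC VEH library 3 they were 0.13 and 0.08. The test called 0% of all genes, with 670 at an unadjusted p under 0.05 and 0 called by DESeq2. Its smallest p among members belonged to Psmc1, with 0.32, and Psmc3, with 0.28, both ATPases of the cap.

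The parts of the complex did not vary to the same degree between libraries of a group. In the enrichment experiment, the median within-group SD of log2 CPM was 0.36 over the beta subunits, 0.24 over the alpha subunits without Psma8, 0.26 over the immunoproteasome genes, and 0.14 and 0.15 over the ATPase and non-ATPase cap subunits. In the minocycline experiment the same medians were 0.21, 0.18, 0.11, 0.14 and 0.14. The mean log2 CPM of the core was 6.26, 5.66 and 5.35 in PFC VEH and 5.97, 5.52 and 5.52 in HC VEH, and that of the cap 6.34, 6.10 and 6 and 6.23, 6.04 and 6.05. Library 1 was the highest of both vehicle groups, by more in the core than in the cap.

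In the enrichment experiment, the libraries with the highest core means, PFC VEH library 1 and HC VEH library 1, also had the highest ribosomal protein means. The mean log2 CPM of ribosomal protein genes was 8.20, 7.26 and 6.63 in PFC VEH, 7.46, 7 and 6.93 in PFC EE, 7.82, 7.06 and 6.95 in HC VEH and 7.01, 7.23 and 7.10 in HC EE. The order was not the same in every library. PFC EE library 1 had a core mean of 5.60 with a ribosomal mean of 7.46, while HC EE library 2 had 5.74 with 7.23. In the minocycline experiment, PFC CUMS library 1 and PFC CUMS_M library 2 both had a core mean of 5.67, with ribosomal means of 7.45 and 7.89. The mean log2 CPM of genes with a principal transcript under 1500 bases, minus that of genes over 4000 bases, was 0.06 in PFC VEH library 1 and -0.73 to -0.23 in the other enrichment libraries. Their part in the spread of the core was not tested. The immunoproteasome mean minus the constitutive mean stayed between 0.11 and 0.44 on the log2 scale in 11 of the 12 enrichment libraries, and was -0.10 in HC VEH library 3, the library with the most mitochondrial counts.

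**Figure D5:**
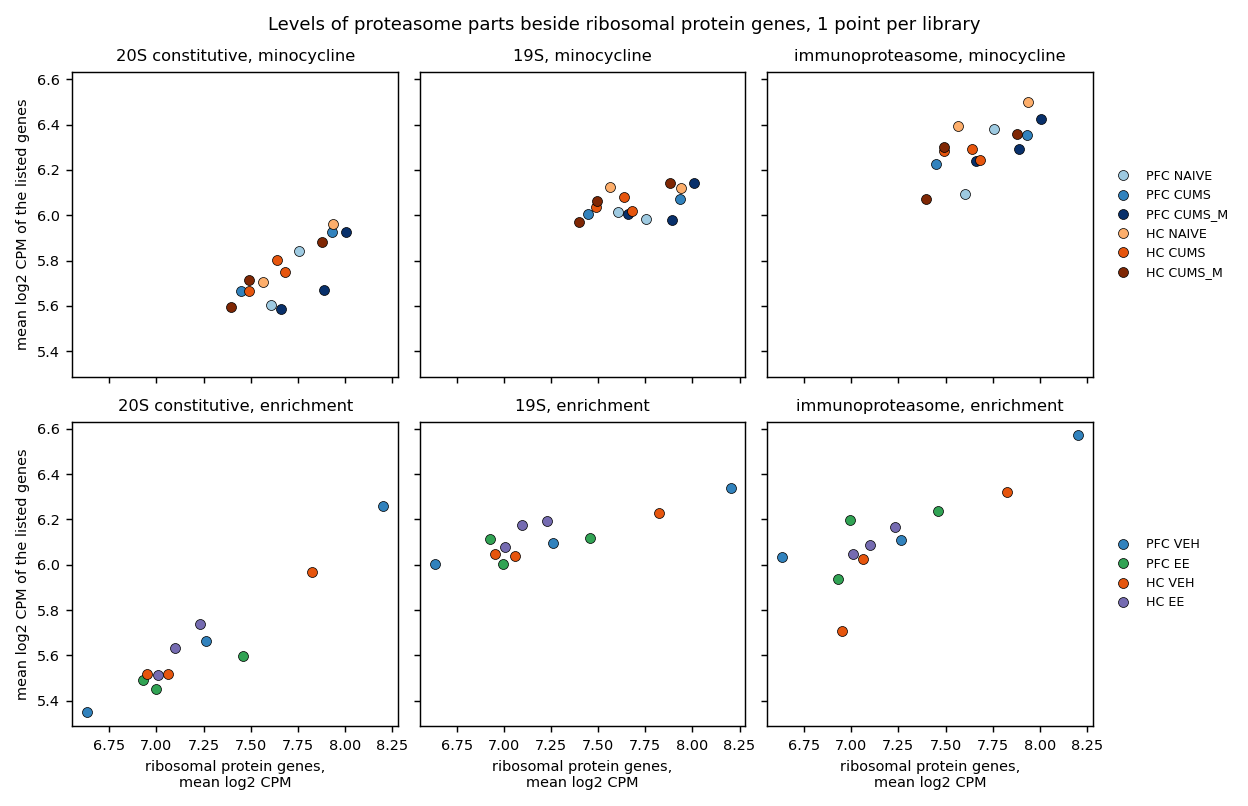
Mean log2 CPM of the 20S core genes, the 19S cap genes and the immunoproteasome genes (columns of panels) against the mean log2 CPM of cytosolic ribosomal protein genes, 1 point per library, with 1 row of panels per experiment. In the enrichment experiment the core spans 5.35 to 6.26 and the cap 6 to 6.34, with PFC VEH library 1 highest in both.

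Genes that work beside the proteasome were read from a list of 24 symbols (ubiquitin genes, shuttle factors, cap-bound deubiquitinases, Pomp, Akirin2 and Nfe2l1), of which 22 were tested. None was called in a treatment contrast. Between the regions of the minocycline experiment 2 were higher in the hippocampus and 0 lower, where 5.10% of all genes were called. Pomp, the maturation factor of the core, had 90.5 against 76.1 CPM (0.27 ± 0.07, adjusted p = 0.0376 in edgeR). Akirin2, which mediates nuclear import of proteasomes, had 97.8 against 81.1 CPM (0.26 ± 0.06, adjusted p = 0.0118 in edgeR). Pomp and Akirin2 were not followed over the alternatives. The genes called between these regions numbered 744 without the replicate block and 309 with it. The regions also differed in choroid plexus genes, as given above, and the part of this was not tested. The 49 proteasome genes themselves gave 0 calls in that contrast. Nfe2l1, the transcription factor that raises proteasome genes when the complex is inhibited, had 0.15 ± 0.09 in PFC EE and 0.13 ± 0.09 in HC EE against vehicle, with adjusted p of 0.986 and 0.668.

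A list of 28 genes of class I presentation and interferon response, all tested, gave 0 calls in the treatment contrasts. It gave 1 between the regions of the minocycline experiment, where 5.10% of all genes were called. That gene was Ifngr1, a chain of the interferon gamma receptor, with 918 CPM in the hippocampus against 796 in the cortex (0.21 ± 0.05, adjusted p = 0.0244 in edgeR). Ifngr1 was not followed over the alternatives either. Tap1, the peptide transporter beside Psmb9, was higher in the same direction by 0.22 ± 0.07 (adjusted p = 0.0559). Irf1, a transcription factor of the interferon response, had 101, 91.2 and 71.1 CPM in PFC VEH and 186, 116 and 133 in PFC EE, higher in every enriched library (0.72 ± 0.20, unadjusted p = 0.00323, adjusted p = 0.986 in edgeR). Psmb8, Psmb9 and Psmb10 overlapped in the same libraries. Nlrc5, which drives class I genes, had 3.79 and 15.7 CPM in PFC NAIVE, and its largest difference was 0.60 ± 0.54 in the regional difference of the minocycline effect (adjusted p = 0.999 in edgeR). The median over the 28 genes was -0.09 in HC CUMS and -0.12 in PFC CUMS against NAIVE, and 0.05 in both enrichment contrasts.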

How the data were processed

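RNA was measured in CD11b+ cells sorted from mouse PFC and HC. The deposited files are 2 tables of raw read counts per gene, made by the authors with Trimmomatic 0.36, STAR 2.6.1b, Picard 2.17.1 and featureCounts 1.5.3 on mm10/GRCm38, per the submitters' processing notes, which also name DESeq2 1.24.0. The annotation release, the strand setting and the treatment of duplicates are not given in the sources used here.

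Gene identifiers were matched to GENCODE M21. The proteasome genes and the companion lists were chosen with earlier results of these data known. Each table was fitted alone in edgeR 4.0.16 (R 4.3.3) with TMM scaling, 1 mean per group and robust quasi-likelihood F-tests. Weakly expressed genes were removed by filterByExpr, set to 10 for single libraries and to 15 for their sum. A tested gene could still lie below 10 in some libraries: Psmc3ip had 4 counts in its lowest minocycline library. Tests covered 14579 genes in the minocycline experiment and 15921 in the enrichment experiment. Two-sided p-values were adjusted per contrast (Benjamini-Hochberg, all genes tested), with 0.05 as the threshold. Region contrasts weight treatments equally. CPM use the TMM-scaled library size, with a prior count of 0.5 on the log2 scale. Motifs were searched in RefSeq windows. The fit was tested on simulated data.

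Named with values were the 5 immunoproteasome genes, Psmb5, Psmb6 and Psmb7, the 2 members of smallest p in each contrast, the members of highest and lowest level and spread, called companion genes, and Tap1, Nlrc5, Irf1, Nfe2l1 and Pomp; 1 further gene of the rule is not reported here. Other members were named after their values were seen, because their groups did not overlap. Alternatives were DESeq2 1.42.0 scaling and Wald tests, no filter, a replicate block, fits restricted to 1 contrast, and omission of single libraries. Replicate numbers are shared between groups; deviations of same-numbered libraries correlated at 0.338, 0.202 and 0.198 in PFC EE against VEH, which meets the criterion for pairs, and at -0.202 to -0.0543 in HC EE against VEH. All values printed come from the fit without the block unless the block is named. Within a group, no library was a duplicate of another (chi-square per gene 6.20 to 118). Libraries of different groups were not compared in this way.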

Additional observations from a re-analysis of the deposited data

How the results depend on the processing

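Under DESeq2 scaling and the replicate block 0 members were called in each of the 13 contrasts, and in fits restricted to 1 contrast 0 in the 10 contrasts fitted that way. With the replicate block, PFC EE against VEH gave a median of -0.13 over the constitutive subunits and -0.11 over the immunoproteasome genes, and -0.31 for Psma7 (adjusted p = 0.995 in edgeR). Under the DESeq2 Wald test, 1 member (Psme2b) was called in PFC CUMS against NAIVE and 1 (Psme2b) in PFC CUMS_M against NAIVE. Without the filter on low counts the numbers were 2 (Psmd13 and Psme2b) and 1 (Psme2b). Leaving out single libraries gave 0 to 3 in PFC CUMS against NAIVE (3 without PFC NAIVE library 2: Psmd13, Psmd9 and Psme2b), 0 to 2 in PFC CUMS_M against NAIVE (2 without PFC NAIVE library 2, 1 without PFC CUMS_M library 2) and 0 to 1 in the regional difference of the stress effect (Psmd9 without PFC NAIVE library 2). It gave 0 in the other contrasts. The cause was not tested.

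Leaving out single libraries moved the constitutive median log2 fold change from -0.167 to -0.0300 in the regional difference of the stress effect, -0.0844 to 0.0835 in that of minocycline, -0.103 to 0.0485 in PFC CUMS_M against CUMS and -0.0642 to 0.0856 in PFC CUMS_M against NAIVE. The immunoproteasome median ranged from -0.430 to -0.0740 in the regional difference of the stress effect, -0.00921 to 0.402 in that of enrichment, -0.0895 to 0.282 in PFC CUMS against NAIVE and -0.120 to 0.291 in PFC CUMS_M against NAIVE.

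In place of CPM, levels per exon kilobase gave Psmb8 minus Psmb5 as -0.16 (minocycline experiment) and -0.40 (enrichment), Psmb9 minus Psmb6 as -1.70 and -1.64, and Psmb10 minus Psmb7 as 1.78 and 2.13. Levels per principal transcript kilobase, an alternative chosen after seeing the data, gave 0.89 and 0.66, -1.49 and -1.43, and 0.60 and 0.95. These shifts follow from the lengths alone.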
